A study of Danio rerio with 12 samples.

Results

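The connexin genes of the zebrafish eye were compared between wild-type fish and a lrpap1 mutant line. They were taken as every gene whose symbol began with cx and a number, or with gja, gjb, gjc, gjd or gje and a number, which gave 33 of the 37055 genes in the table. All 33 were described there as connexins or gap junction proteins. The symbol decided membership and no measured value entered the rule, although earlier results of these data were known when it was chosen. RNA came from 6 wild-type fish and 6 fish of a stable lrpap1 knockout line (lrpap1-KO), all at 3 months after fertilization, and each sample was the pair of eyeballs of 1 fish. The mutants were homozygous for a frameshift made with CRISPR/Cas9, a nuclease directed by a guide RNA, and came from 1 line, so genotype and line background cannot be told apart. Polyadenylated RNA was sequenced from the whole eyeball, so every value sums over all tissues of the eye, and fewer cells of a type cannot be told apart from less RNA per cell.

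Connexins are membrane proteins that assemble into hexagonal half-channels, and half-channels of adjacent cells dock to form gap junctions, through which ions and small metabolites pass. They are sorted into alpha, beta, gamma, delta and epsilon groups by sequence, and the older zebrafish names (cx43, cx52.6) give the predicted protein mass. In the eye, gap junctions of alpha connexins such as GJA3 couple the fibre cells of the avascular lens, and human mutations in GJA3 cause cataract. In the retina, delta connexins form electrical synapses between neurons, and the zebrafish connexins cx52.6, cx52.7, cx52.9 and cx55.5 couple horizontal cells, the interneurons that feed back onto photoreceptors. Variants near human GJD2, the main connexin of electrical synapses, are associated with refractive error.

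Wild-type samples held 7988538 to 9829112 counts in all and mutant samples 7996647 to 9780310. Counts are given as CPM, the count relative to the TMM-scaled total (counts per 1e6) of the sample, when a gene is compared between samples. They are given as TPM, which also divides by gene length, when genes are compared with each other. The targeted gene, lrpap1, had a median of 28.3 CPM (21.9 to 31.2) in wild-type and 18.8 CPM (16.3 to 22.3) in mutant eyes, and its mRNA was lower in the mutants (log2 fold change, log2FC, -0.52, standard error, SE, 0.11, adjusted p = 0.0108). Wild-type replicate 3 stood apart: the 72 genes described as crystallins, most of which encode the bulk proteins of the lens, held 0.132% of its TPM, while the remaining 11 samples had 12.4% to 20.4%. The lens fibre markers summed to 74.6 CPM in that sample, to 7704 to 16007 CPM in the other wild-type samples and to 7273 to 8578 CPM in the mutants. The label of a whole eyeball is thus not matched by lens RNA in wild-type replicate 3, and the values of each lens connexin described below are given with and without it. That sample was also the lowest wild-type sample for the summed markers of myelinating glia, 567 CPM against 1128 to 1577 CPM in the others. The same held for endothelium, 38.3 against 64.0 to 199 CPM, while the summed horizontal cell markers were highest there (213 against 160 to 180 CPM). Most of that sum was tfap2a (147 CPM). Only tfap2a and rprmb among these markers were highest in that sample, and lhx1a and rem1 were the lowest of the wild-type samples there. In the mutants the myelinating glia markers summed to 201 CPM in mutant 1, below wild-type replicate 3, and to as much as 2322 CPM in another mutant. The mutant sums were 49.0 to 184 CPM for endothelium and 133 to 178 CPM for horizontal cell markers.

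The connexins that made up most of the connexin mRNA were retinal and widely expressed ones. The neuronal delta connexin gjd2b had the highest mean level over all samples, 85.6 TPM, with 85.5 ± 26.6 TPM in wild-type and 85.8 ± 14.5 TPM in mutant eyes (SD, n = 6 each). It was followed by cx43, the zebrafish form of the widespread GJA1, with 73.4 TPM. The horizontal cell connexins cx52.6 (50.9 TPM) and cx55.5 (41.2 TPM) and the neuronal gjd1a (37.6 TPM) came next. The order of gjd2b and cx43 does not hold in each sample, since gjd2b ranged from 50.3 to 127 TPM and cx43 from 55.0 to 111 TPM. Lower levels were found for the beta connexin cx34.4 (16.3 TPM), the gamma connexin cx43.4 (15.4 TPM) and the lens connexin gja3 (12.23 TPM).

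Summed over the 33 genes, connexin mRNA was between 400 and 498 TPM in the wild-type and between 464 and 537 TPM in the mutant samples, so the genotypes overlapped. The wild-type maximum belonged to replicate 3. The remaining wild-type samples had 400 to 468 TPM of connexin mRNA, which overlapped only the lower mutants. The 4 lens connexins held 9.88% to 15.5% of it in the wild-type samples other than replicate 3, 0.114% in replicate 3 and 5.04% to 11.2% in the mutants. The 4 horizontal cell connexins held 20.6% to 34.9% in wild-type and 19.96% to 28.2% in mutant eyes, with the highest share in wild-type replicate 3.

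**Figure D1:**
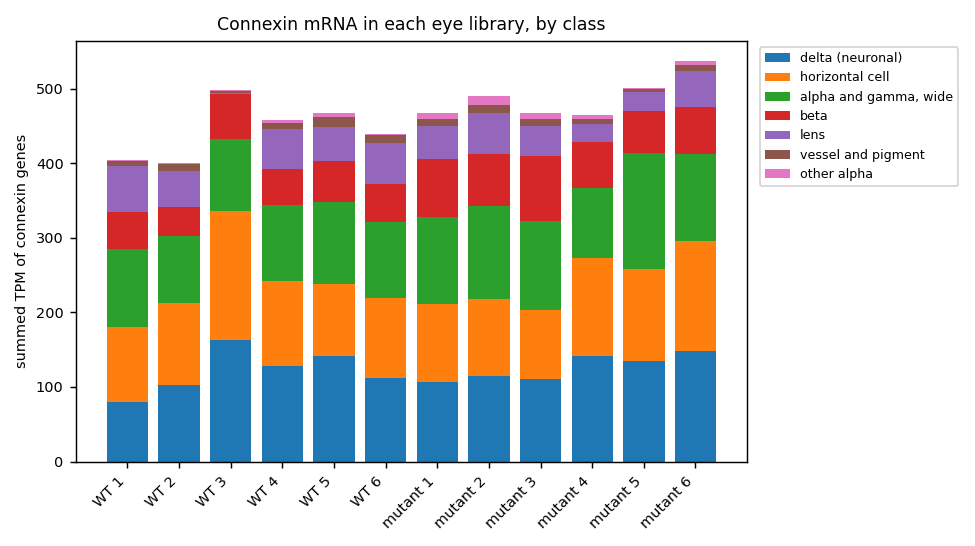
Summed TPM of the 33 connexin genes in each of the 12 eye libraries, stacked by class. The lens class is almost missing from wild-type replicate 3 (0.114% of connexin TPM) and is low in mutants 4 and 5 (5.04% and 5.19%), while totals lie between 400 and 537 TPM.

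Of the 33 connexin genes, 23 passed the filter on low counts and were tested with edgeR's quasi-likelihood test. Expression of 3 of the 23 (13.0%) was higher in the mutants at an adjusted p under 0.05, against 6.92% of the 18984 genes tested, and these were cx30.9, cx44.2 and cx43.4. None of the 23 was lower, against 4.27% of all tested genes, and none was lower at an unadjusted p under 0.05 (13.0% of all genes) or with DESeq2, which placed 5.45% of all its genes there. With a fold change over 2 required as well, cx30.9 and cx44.2 remained (8.70%), against 3.68% of all genes. At an unadjusted p under 0.05, where 14.2% of all genes were higher, cx32.2 and cx34.4 joined the 3 genes. DESeq2, which tested 31 of the connexins, placed these 5 (16.1%) under an adjusted p of 0.05, against 8.54% of all genes it tested. The other 18 of the 23 were spread on both sides of 0 in edgeR, with 7 positive and 11 negative log2FC values. The median over all 23 was 0.02, against -0.02 for all tested genes. Without wild-type replicate 3 the same 3 genes passed as higher, against 6.51% of all genes in that fit, and none as lower, against 3.26%, with 2 lens connexins, gja3 among them, lower at an unadjusted p under 0.05 (10.7% of all genes). DESeq2 without that sample tested 30 connexins, kept its 5 as higher (16.7%, against 7.93% of all genes) and placed the same 2 as lower (4.80% of all genes). In edgeR, the count of 3 higher genes became 2 without mutant 1, 2 or 3, and 5 without wild-type replicate 5 or mutant 5.

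**Figure D2:**
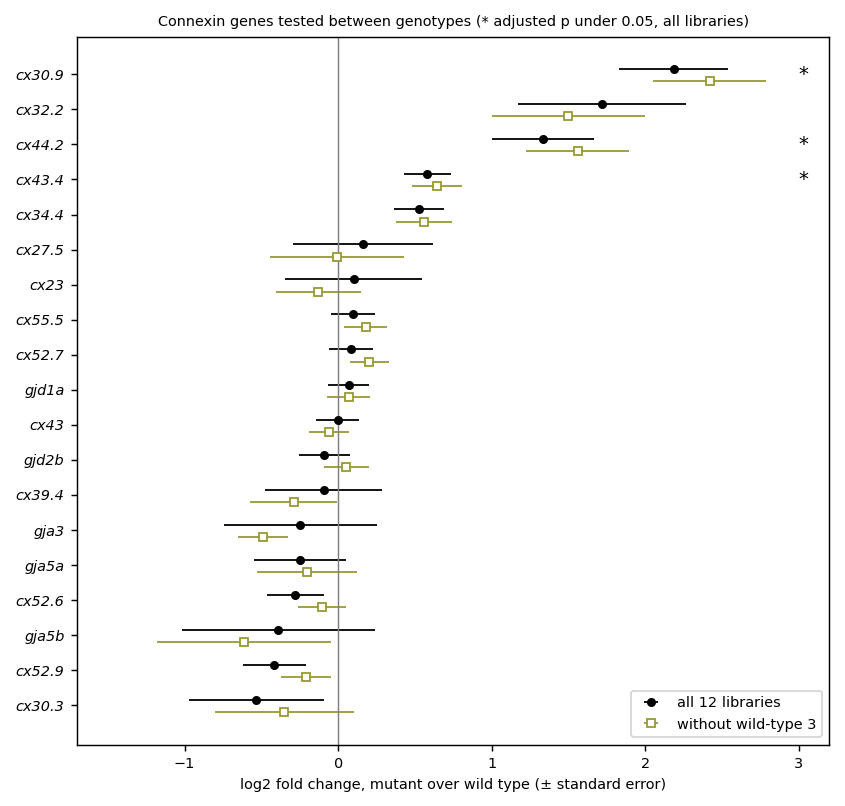
Log2 fold change, mutant over wild type, of 19 of the 23 connexin genes tested (points, with standard error bars), with all 12 libraries (filled circles) and without wild-type replicate 3 (open squares). The stars mark cx30.9, cx44.2 and cx43.4, and the error bar of gja3 shortens when the replicate is left out.

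The beta connexin cx30.9 (current symbol gjb9b) showed the largest fold change. The gene lies at chr19:37116174-37119891 of GRCz11 on the forward strand. It was measured at 0.514 to 2.00 CPM with a median of 1.03 in wild-type eyes and at 3.85 to 8.56 CPM with a median of 4.69 in mutant eyes. The highest wild-type sample was thus below the lowest mutant sample, and 2 of the 23 tested connexins were separated in this way, against 3.69% of all tested genes with the mutants higher, while none was separated with the mutants lower, against 2.14%. The means were 1.19 ± 0.670 and 5.396 ± 1.92 CPM (SD, n = 6 each), and the log2FC was 2.19 (SE 0.36, 95% interval 1.39 to 2.98, adjusted p = 0.00196), which is 4.55-fold. Its counts were low, 5 to 18 in wild-type and 34 to 81 in mutant samples, which widens this interval. The neighbouring connexin cx39.4, which lies 33517 bases away on the other strand, had a log2FC of -0.09 (SE 0.38, adjusted p = 0.905).

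The gamma connexin cx44.2 (gjc4a.1), at chr6:21001455-21009814 on the forward strand, was the other member past both thresholds. Wild-type samples ranged from 2.70 to 7.68 CPM with a median of 3.82, and mutant samples from 6.82 to 18.6 CPM with a median of 9.58. The ranges overlapped because wild-type replicates 1 (6.85 CPM) and 3 (7.68 CPM) reached the level of mutants 4 (6.82 CPM) and 2 (7.38 CPM). Mutants 1 and 3 were the highest, with 18.4 and 18.6 CPM. Its log2FC was 1.34 (SE 0.33, 95% interval 0.60 to 2.08, adjusted p = 0.0196), a 2.53-fold difference of the means 4.66 ± 2.12 and 11.7 ± 5.36 CPM (SD, n = 6 each). Leaving out mutant 1 or mutant 3 brought the adjusted p to 0.0488 and 0.0452, still under the threshold.

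Another gamma connexin, cx43.4 (gjc4b), which is required for left-right patterning in the zebrafish embryo, was more abundant and changed less. It lies at chr9:46405587-46415813 on the reverse strand. Wild-type samples were between 10.99 and 18.3 CPM (median 16.6) and mutant samples between 19.1 and 28.2 CPM (median 23.0), so the genotypes did not overlap. The means were 15.5 ± 3.00 and 23.2 ± 4.18 CPM (SD, n = 6 each), a log2FC of 0.58 (SE 0.15, 95% interval 0.24 to 0.92, adjusted p = 0.0261). Within the mutants, replicates 1 to 3 were at 25.9 to 28.2 CPM and replicates 4 to 6 at 19.1 to 20.1 CPM. The adjusted p was 0.0555 without mutant 1 (log2FC 0.56), 0.0565 without mutant 2 (0.54) and 0.051 without mutant 3 (0.57), so the gene missed the threshold in those fits. The gene overlaps LOC110440050 on the opposite strand, which had 0 to 6 counts in any sample. The sources used here do not say whether reads were counted by strand.

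Closer to the threshold lay the beta connexin cx34.4 (gjb10), at chr17:24841718-24847005 on the forward strand. It was measured at 20.4 to 31.2 CPM (median 27.5) in wild-type and at 24.5 to 52.4 CPM (median 35.6) in mutant eyes, with mutant 5 within the wild-type range. Its log2FC was 0.53 (SE 0.16, 95% interval 0.16 to 0.89, adjusted p = 0.0543), and DESeq2 gave an adjusted p of 0.0255. The adjusted p was 0.0131 without mutant 5 and 0.0493 without wild-type replicate 5. Mutants 1 and 3 were the highest of all samples, with 52.4 and 46.5 CPM.

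The fish alpha connexin cx32.2 (gja13.2), at chr20:40723940-40729364, varied most within a genotype among the 5 genes with a low unadjusted p. Wild-type samples ranged from 0.111 to 2.87 CPM (median 0.843) and mutant samples from 1.25 to 7.47 CPM (median 4.08). Mutant 5 (1.25 CPM) lay below wild-type replicates 4 (2.07 CPM) and 5 (2.87 CPM). The log2FC of 1.72 (SE 0.55, 95% interval 0.50 to 2.94) had an adjusted p of 0.0572 in edgeR and 0.0183 in DESeq2. Without wild-type replicate 5 the edgeR value was 0.0213, and without mutant 5 it was 0.035. The gene sits in a group of 6 connexin genes within chr20:40715163-40760217, 3486 bases from the abundant cx43. The other 4 genes of the group, cx28.1, cx28.9, cx32.3 and cx34.5, were too low to test.

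**Figure D3:**
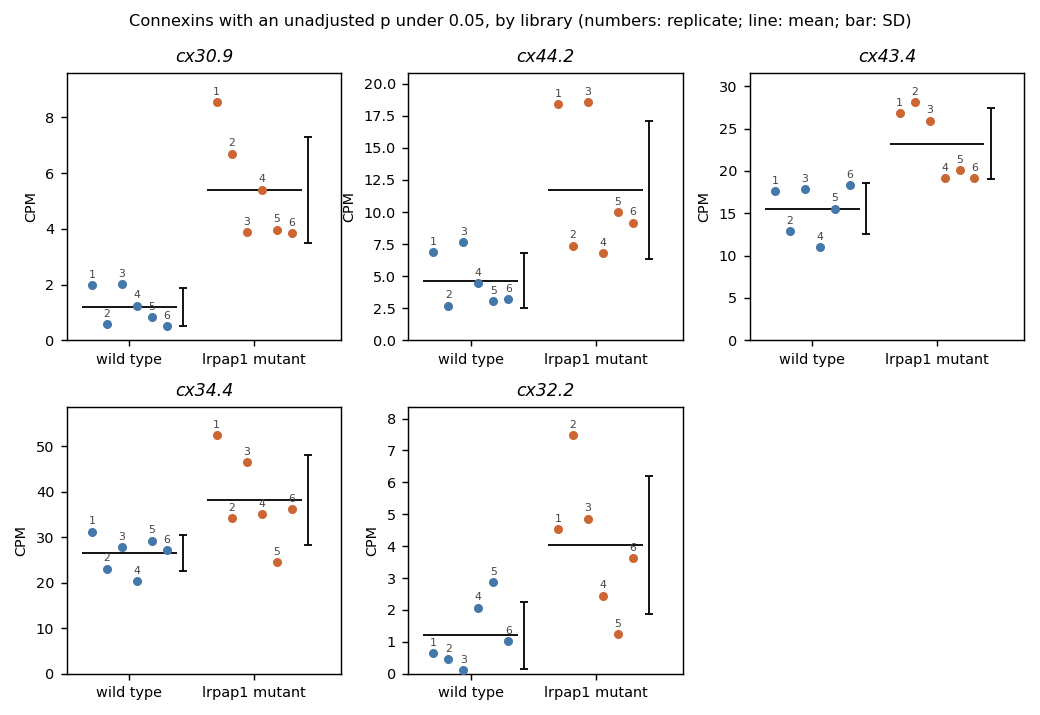
CPM of the 5 connexins with an unadjusted p under 0.05, in each of the 6 wild-type and 6 mutant libraries (numbered points; line, mean; bar, SD). The genotypes separate for cx30.9 and cx43.4, and mutants 1 and 3 lead cx44.2 and cx34.4.

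Beta connexins are abundant in surface epithelia, and markers of other cells that an eyeball sample can hold were read beside these genes. Of all tested genes, 6.92% were higher at an adjusted p under 0.05 and 4.27% lower. Of the 5 corneal and skin epithelium markers, krt4 rose (log2FC 1.13, adjusted p = 0.00836) and epcam rose (1.34, adjusted p = 0.0052), while krt5, tp63 and cldni did not pass. Their summed CPM was 6299 to 10047 in wild-type and 6854 to 12612 in mutant eyes, and no marker was at 0 in any sample. For epcam, an adhesion protein of epithelial cells, mutants 1 and 3 were also the highest, with 271 and 288 CPM, and mutant 5 the lowest of the mutants, with 95.4 CPM. This order was read after the values were seen. Mutants 1 and 3 were also the highest mutants for krt4, tp63 and cldni, but mutant 6 was the lowest there. For krt5, mutants 3 and 5 were the highest. All 3 macrophage markers rose, with a summed CPM of 20.5 to 57.2 in wild-type and 44.4 to 110 in mutant eyes. Without wild-type replicate 3, 1 of the 3 passed, and 6.51% of all genes in that fit were higher. The order of mutants 1 to 3 above mutants 4 to 6 seen for cx43.4 was found in markers of several cell types, read after their values were seen. It held for all 3 macrophage, all 5 endothelial and all 4 skeletal muscle markers, and for krt4, tp63, cldni and cdh1. No horizontal cell or myelinating glia marker showed it. For krt4 the former were at 3010 to 3511 CPM and the latter at 1904 to 2329 CPM, and for cdh1 at 176 to 184 and 125 to 131 CPM. Examples among the macrophage genes were csf1ra (35.9 to 47.8 and 13.4 to 20.4 CPM) and coro1a (34.9 to 39.6 and 18.8 to 27.3 CPM). The endothelial gene kdrl was at 70.8 to 102 and 21.4 to 37.9 CPM. The epithelial markers krt5 (4627 to 9092 and 4691 to 7830 CPM) and epcam (132 to 288 and 95.4 to 224 CPM) did not show this order. Neither did cx30.9 (3.89 to 8.56 and 3.85 to 5.41 CPM). Of the 4 skeletal muscle markers 1 was lower, with a summed CPM of 471 to 1397 in wild-type and 465 to 958 in mutant eyes. Of the 6 pigment cell markers 1 was lower, and none of the 5 endothelial markers passed. The part of epithelial, macrophage or endothelial RNA in the higher connexin levels was not tested.

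None of the 4 lens connexins differed between the genotypes when all 12 samples were used, with no unadjusted p under 0.05 in edgeR and none passing in DESeq2. Their wild-type values contained 1 sample almost without lens RNA. In wild-type replicate 3 gja3 had 6 counts and cx23 had 2. The other wild-type samples averaged 60.7-fold more gja3, and for cx23 the ratio was 18.9 (95% counting interval 5.24 to 156). This interval covers counting error only.

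The alpha connexin gja3 (chr9:21405626-21411409, forward strand) was at 27.5 to 54.3 CPM with a median of 40.8 in the 5 wild-type samples that kept lens RNA, and at 0.668 CPM in replicate 3. The mutants were at 24.3 to 36.2 CPM with a median of 27.8, so they overlapped the lower wild-type samples. With all samples the log2FC was -0.25 (SE 0.50, 95% interval -1.35 to 0.86, adjusted p = 0.797). Without wild-type replicate 3 it was -0.49 (SE 0.16, 95% interval -0.85 to -0.12), with an adjusted p of 0.0756 in edgeR and 0.0407 in DESeq2.

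The epsilon connexin cx23 (gje1a, chr20:37294122-37298274, forward strand) was lower in level than gja3 (3.40 against 12.23 TPM), with 2.46 to 7.25 CPM in the 5 wild-type samples, 0.223 CPM in replicate 3 and 2.61 to 5.10 CPM in the mutants. Its log2FC was 0.10 with all samples (adjusted p = 0.914) and turned to -0.13 without replicate 3 (SE 0.28, adjusted p = 0.82).

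**Figure D4:**
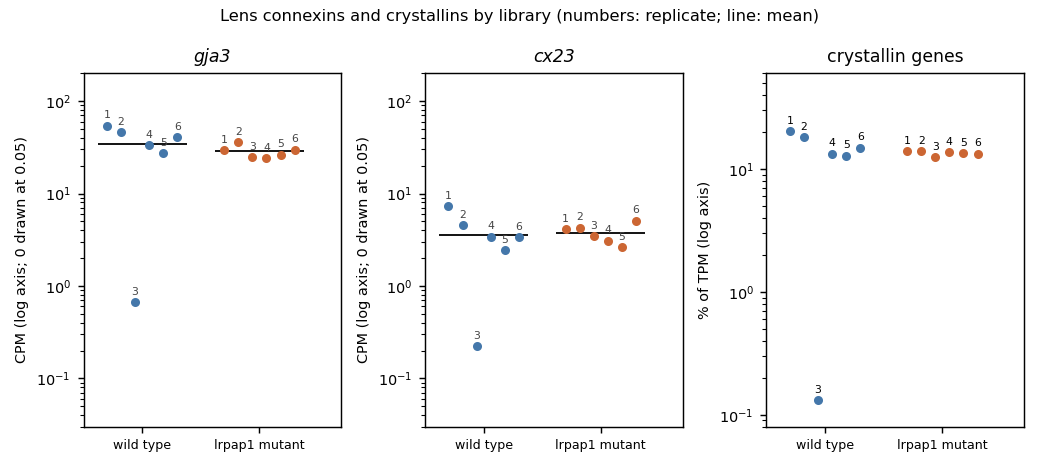
CPM of the lens connexins gja3 and cx23 (log axis) and the share of TPM held by crystallin genes (log axis) in each library (numbered points; line, mean of the connexins). Wild-type replicate 3 lies far below the rest in all 3 panels, and the mutants lie within or just below the range of the other wild-type samples.

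Relative to 1000 TPM of crystallin, gja3 was at 0.0857 to 0.105 TPM in the 5 wild-type samples and at 0.0689 to 0.114 TPM in the mutants, so these ranges overlapped. The value in wild-type replicate 3 was 0.203 TPM and rests on 6 counts. Mutants 4 and 5 held the lowest shares of lens connexins among the mutants, 5.04% and 5.19% of connexin TPM, whereas crystallin genes held 13.6% and 13.4% of their TPM, inside the range of the other mutants. Single lens genes went both ways there: the crystallin cryaa was at 1224 and 1119 CPM, against 1888 to 2068 CPM in the other mutants. The lens epithelium gene foxe3 was at 1.80 and 1.59 CPM, with 14 counts in each, against 2.96 to 6.69 CPM. The other listed lens epithelium markers, pax6b and cdh1, were not set apart there, but they did not follow lens RNA in these samples. In wild-type replicate 3 they were at 80.0 and 109 CPM, the highest wild-type values, while foxe3 was lowest there at 0.779 CPM. They therefore do not show the amount of lens epithelium RNA in mutants 4 and 5. For pax6b the values were 65.9 and 65.6 CPM, against 57.9 to 71.9 CPM, and for cdh1 131 and 125 CPM, against 125 to 184 CPM. The fibre gene bfsp1 was at 804 CPM in mutants 4 and 5, against 691 to 721 CPM. Mutants 4 and 5 were described after their values were seen, and no test was made between them and the others.

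Lens fibre markers were also almost missing from wild-type replicate 3. None of the 11 tested fibre genes passed with all samples, in edgeR or DESeq2, and none had an unadjusted p under 0.05. Without wild-type replicate 3, 3 of them were lower in the mutants, against 3.26% of all genes in that fit. These were mipa (-0.52, adjusted p = 0.0354) and mipb (-0.59, adjusted p = 0.0314), which encode the aquaporin of fibre cell junctions, and the crystallin cryba2a (-0.68, adjusted p = 0.0267). The log2FC of the fibre filament gene bfsp1 was positive in the same fit (0.26, adjusted p = 0.536). Per 1000 TPM of crystallin, the summed lens connexins were at 0.266 to 0.396 TPM in the wild-type samples other than replicate 3, at 0.430 TPM in replicate 3 and at 0.172 to 0.395 TPM in the mutants. The value of replicate 3 rests on few counts, with 6 of gja3 and 2 of cx23 among them. The part of the amount of lens RNA in the lens connexin values was not tested.

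The horizontal cell connexins did not pass the test, and their ranges overlapped between the genotypes. For cx52.6 (gja10b, chr20:23960384-23964382), wild-type samples were at 52.5 to 104 CPM (median 60.8) and mutants at 41.1 to 75.6 CPM (median 54.0), with a log2FC of -0.28 (SE 0.19, 95% interval -0.70 to 0.14, adjusted p = 0.368). The wild-type maximum belonged to replicate 3, and without it the log2FC was -0.11 (adjusted p = 0.736). Its relative cx55.5 (gja9a) was at 70.5 to 124 CPM in wild-type and 86.5 to 128 CPM in mutant eyes, with a log2FC of 0.10 (SE 0.14, 95% interval -0.22 to 0.42, adjusted p = 0.714). The less abundant cx52.7 (gja10a) had 10.9 to 18.7 CPM in wild-type and 12.9 to 16.6 CPM in mutant eyes (0.08, SE 0.14, adjusted p = 0.753). For cx52.9 (gja9b) the values were 9.62 to 22.0 and 7.997 to 12.5 CPM (-0.41, SE 0.20, 95% interval -0.87 to 0.04, adjusted p = 0.208). Wild-type replicate 3 was the highest wild-type sample for all 4 genes. The summed CPM of the 7 horizontal cell markers was also highest there, 213, with 160 to 180 in the remaining wild-type samples and 133 to 178 in the mutants. Of the 7 markers, tfap2a and rprmb were highest in that sample, while lhx1a and rem1 were lowest there among the wild-type samples. None of the 7 passed in edgeR or DESeq2, and 1 was lower at an unadjusted p under 0.05 in edgeR (13.0% of all genes).

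The connexins of electrical synapses were likewise not separated. The delta connexin gjd2b (chr20:9960803-9963666, reverse strand) was at 28.7 to 62.1 CPM (median 43.01) in wild-type and at 34.4 to 51.5 CPM (median 37.0) in mutant eyes, with the mutants inside the wild-type range. The log2FC was -0.09 (SE 0.17, 95% interval -0.46 to 0.28, adjusted p = 0.77) and was 0.05 without wild-type replicate 3, the highest sample. For gjd1a (chr5:36974931-36997238) the values were 17.8 to 21.6 CPM in wild-type and 15.6 to 27.5 CPM in mutant eyes, with a log2FC of 0.07 (SE 0.13, adjusted p = 0.786).

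Among the widely expressed connexins, cx43 (gja1b, chr20:40715163-40720453, reverse strand), whose loss shortens the fins of zebrafish, was at 83.5 to 130 CPM (median 117) in wild-type and at 90.0 to 163 CPM (median 105) in mutant eyes. Mutant 5 was the highest sample at 163 CPM, and the other mutants did not exceed 111 CPM. The means were 113 ± 15.9 and 113 ± 25.8 CPM (SD, n = 6 each), with a 95% interval of the log2FC from -0.31 to 0.31 (adjusted p = 0.996) and a sign that depended on the scaling. Wild-type replicate 3 was the lowest of all samples, and without it the log2FC was -0.06 (adjusted p = 0.817 in edgeR). None of the 4 Müller glia markers and none of the 5 markers of myelinating glia passed in edgeR or DESeq2. None had an unadjusted p under 0.05 in edgeR, where 14.2% of all genes were higher and 13.0% lower. The Müller glia marker gfap was lower without wild-type replicate 3 (adjusted p = 0.0244), against 3.26% of all genes in that fit. For cx43, the 4 horizontal cell connexins and both delta connexins the whole 95% interval of the log2FC lay between -1 and 1.

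**Figure D5:**
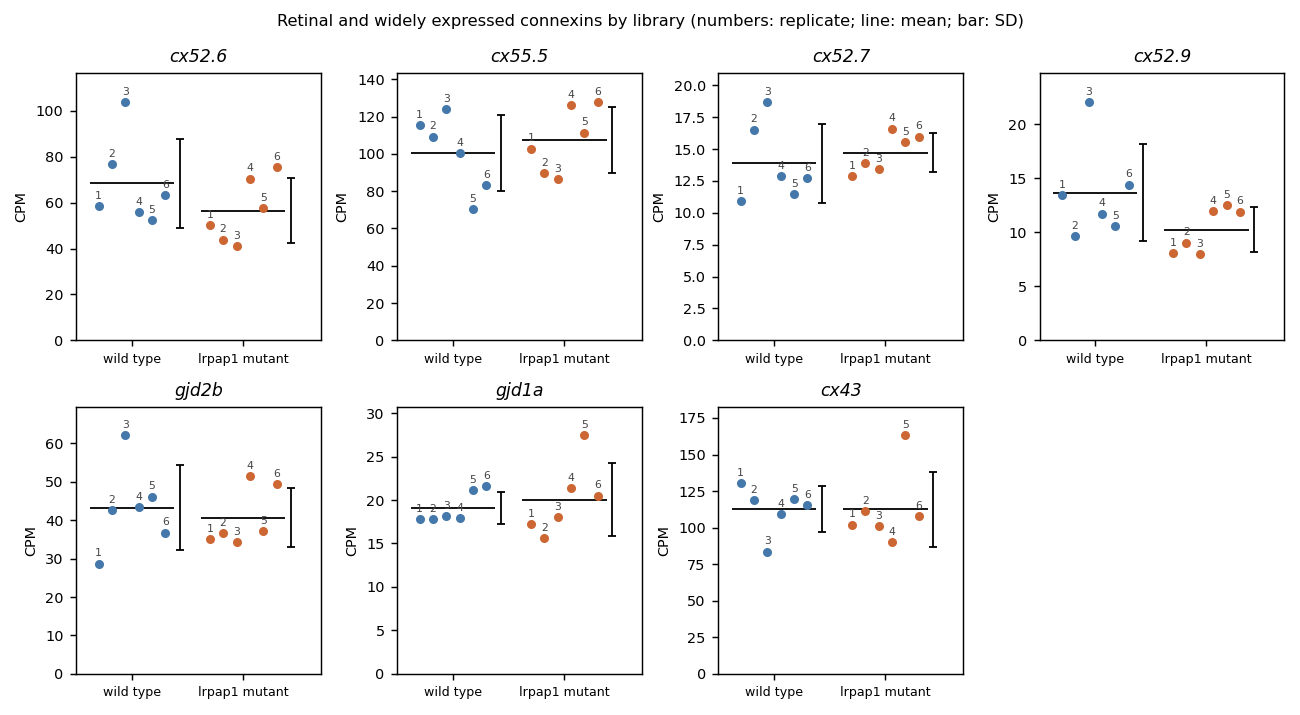
CPM of the 4 horizontal cell connexins, the delta connexins gjd2b and gjd1a, and cx43 in each library (numbered points; line, mean; bar, SD). The genotypes overlap in all 7 panels, wild-type replicate 3 is the highest wild-type sample for the horizontal cell connexins and gjd2b, and mutant 5 stands above the rest for cx43.

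Several low connexins did not pass. They include gja5a and gja5b, copies of a connexin of arterial endothelium, of which gja5b also acts in the pigment cells of the zebrafish stripes (the leopard mutant), and cx39.4 (gja4), which acts with it there. Their log2FC values were -0.25 (SE 0.30, adjusted p = 0.639) for gja5a, -0.39 (0.63, 0.74) for gja5b and -0.09 for cx39.4, at mean levels between 0.879 and 5.83 TPM. Wild-type replicate 3 was the lowest wild-type sample for cx39.4 (0.668 CPM) and gja5b (0.111 CPM), and gja5b had no count in mutant 4. The beta connexin cx30.3 (gjb8), which ends 566 bases before gja3, ranged from 5.34 to 14.6 CPM in wild-type and from 0.845 to 13.5 CPM in mutant eyes (-0.53, SE 0.44, adjusted p = 0.47). Unlike gja3, cx30.3 was highest in wild-type replicate 3 among the wild-type samples. The gene cx27.5 (gjb1a), a copy of GJB1 of myelinating glia, had a log2FC of 0.16 (SE 0.46, adjusted p = 0.857), and its 3' end overlaps the 5' end of cx39.9 by 240 bases on the same strand. Its lowest wild-type sample was replicate 3 (0.779 CPM), and the log2FC was -0.007 without that sample.

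The other 10 connexins did not pass the filter: cx28.1, cx28.6, cx28.8, cx28.9, cx31.7, cx32.3, cx34.5, cx36.7, cx39.9 and gjd4. None had more than 18 counts in a sample, and their mean levels were between 0.055 and 0.81 TPM. With the filter lowered to at least 1 count in any sample all 10 could be tested, and none passed. The lowest adjusted p was 0.164, for cx28.8 (gjb7), the 1 gene of the 10 with an unadjusted p under 0.05.

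Another 5 genes described as gap junction proteins carry identifiers that the symbol rule does not take, and none passed the adjusted threshold. LOC100331216 (current symbol gjd1b), a neuronal delta connexin, was the most abundant, with 30.9 ± 8.16 CPM in wild-type and 33.5 ± 6.11 CPM in mutant eyes (SD, n = 6 each). LOC796202, described as similar to gje1, and LOC556987 had no count in wild-type replicate 3, and the mean of the other wild-type samples was at least 14.9-fold and at least 7.78-fold higher, computed against 3 counts in that library, a floor that covers counting error only. LOC564307 (gjc1) and LOC565638 (gja1a) had log2FC values of -0.00 and 0.11.

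Genes whose products bind connexins or share their junctions were read from a list of 14 scaffolds and partners and 4 pannexins, channel proteins related in topology. Of the 14, tjp3, which encodes a zonula occludens scaffold, rose from 23.4 ± 5.43 to 37.7 ± 8.56 CPM (SD, n = 6 each), a log2FC of 0.69 (SE 0.17, adjusted p = 0.0206). The epithelial cadherin cdh1 rose from 92.5 ± 12.3 to 154 ± 29.6 CPM (0.74, SE 0.13, adjusted p = 0.00318), with the lowest mutant at 125 CPM and the highest wild-type sample at 109 CPM. These 2 of the 14 stand against 6.92% of all tested genes. The other 12, including the scaffolds tjp1a and tjp1b, did not pass, and none was lower in edgeR at an unadjusted p under 0.05 (13.0% of all genes). DESeq2 called the same number higher (8.54% of all its genes) and none lower (5.45%). Without wild-type replicate 3, mipa and mipb also passed as lower, against 3.26% of all genes in that fit. Of the pannexins 3 were tested and none passed in edgeR or DESeq2. The nearest was panx1b, with 6.49 ± 1.095 CPM in wild-type and 4.57 ± 0.747 CPM in mutant eyes (SD, n = 6 each, log2FC -0.50, SE 0.17, adjusted p = 0.0668). It was the 1 pannexin with an unadjusted p under 0.05, where 13.0% of all genes were lower. The median log2FC was -0.01 for the scaffolds and partners and -0.15 for the pannexins, against -0.02 for all tested genes.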

How the data were processed

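Reads from 12 eyeball samples were aligned by the authors to GRCz11 with HISAT2 2.1.0, and the raw count of each gene was deposited. The counting program and its use of strand are not given in the sources used here. Deposited TPM values equalled the count over the listed gene length rescaled per sample (largest relative deviation 4.98e-10). Counts were tested in R 4.3.3 with edgeR 4.0.16 (TMM, filterByExpr, quasi-likelihood test, genotype as the only term), with Benjamini-Hochberg adjustment over 18984 genes. Calls needed an adjusted p under 0.05 together with a log2 fold change above 1 in either direction, as the study's methods set. DESeq2 1.42.0 and limma 3.58.1 (on quality-weighted voom values, or on log2 of TPM plus 1), other scalings and filters, other thresholds, a replicate block and leaving out each sample were alternatives, and DESeq2 without wild-type replicate 3 was added after seeing the data. Standard errors were derived from the test statistic, and intervals are at 95%. Of 200 genes changed by 2 on the log2 scale in simulated counts of this comparison (18984 genes), edgeR recovered 200 with 1 false call, DESeq2 200 with 3, and limma voom 200 with 2. The changed genes were drawn only from genes with higher expected counts, and no simulated sample lacked lens RNA. This recovery therefore does not cover connexins with few counts or with smaller changes. Current symbols of all 33 genes came from RefSeq by NCBI gene number.

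Members and lists were chosen with earlier results of these data known, and the classes of connexins were assigned after the values were seen. All connexins entered the tests, counts and sums, but single values of 4 of the 23 tested genes are not reported here. Among the others, the range over samples was given for those with an adjusted p under 0.05, the lens connexins, the 3 with the highest mean TPM and those whose genotypes did not overlap, and cx34.4, cx32.2 and the others described in more detail were chosen after their values were seen. The total count per sample, between 7988538 and 9829112, leaves a large counting error for genes with few counts. Sequences were not used here.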

Additional observations from a re-analysis of the deposited data

Results flagged for a closer look

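In 2 of 38 groups of 6 samples 1 sample lay far from the rest, with a gap to its nearest neighbour above Dixon's 95% critical value as a share of the whole range, and chance gives about 1 in 20 groups, or 1.9. For cx43 in mutant eyes, mutant 5 was at 163 CPM and the next at 111 CPM (ratio of gap to range 0.711). For cx39.4 in mutant eyes, mutant 5 was at 1.13 CPM and the next at 2.96 CPM (0.658). No wild-type group was flagged, and so not wild-type replicate 3, although gja3 was at 0.668 CPM there and at 27.5 to 54.3 CPM in the other wild-type samples. A group without a flag can therefore still hold a sample that stands apart.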

How the results depend on the processing

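The calls of cx30.9 (log2 fold change 1.603 to 2.46) and cx44.2 (1.18 to 1.56) held in all 22 and 23 alternative fits that gave a value, and cx30.9 had none under at least 10 counts in every sample, where it was filtered out. The count of 2 genes past both thresholds was 1 with at least 10 counts in every sample, and 2 to 3 when a sample was left out. It was 1 at an adjusted p under 0.01, where cx44.2 (adjusted p = 0.0196) was lost. It was 3 with DESeq2, with or without wild-type replicate 3, with limma voom and with limma on log2(TPM + 1). The count of 3 at an adjusted p under 0.05 was 5 with DESeq2, 5 with limma on log2(TPM + 1), 7 with DESeq2 without wild-type replicate 3, and 2 to 5 when a sample was left out. The count of 0 lens connexins was 2 with DESeq2 without wild-type replicate 3 and 0 with each sample left out in edgeR. The log2 fold change changed sign for cx23 with DESeq2 without wild-type replicate 3 (-0.14), with -0.13 to 0.44 over left-out samples. With limma on log2(TPM + 1) it was 0.28 for gja3, 0.047 for gjd2b and 0.10 for cx43, and with limma voom 0.0091 for gjd2b. For gjd2b it was 0.044 with DESeq2 without wild-type replicate 3 and -0.17 to 0.054 over left-out samples. For cx43 it was 0.0096 with DESeq2's size factors, 0.055 by library size, 0.015 with crystallins left out of the scaling, 0.0099 with at least 1 count in any sample, 0.031 with at least 10 counts in every sample, 0.0061 with DESeq2, and -0.12 to 0.073 over left-out samples. The causes were not tested, and fewer genes or samples entered the stricter filter and the left-out fits. Replicate numbers did not pair the samples: deviations of same-numbered samples correlated at -0.302 to 0.1095, and 1 of 6 wild-type samples correlated best with its own number. With the replicate block 2 connexins passed (cx30.9 and cx44.2), and cx43.4 had an adjusted p of 0.0509. The log2 fold change of gja3 turned positive in that fit, at 0.054 (adjusted p = 0.968). The 10 connexins with at most 18 counts entered only the looser filter and DESeq2, and their counting error is large.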
